A study of Arabidopsis thaliana with 18 samples.

Results

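The genes described here are 39 Arabidopsis thaliana loci that drive or regulate the end of the cell cycle, chosen by name and function. They are the A- and B-type cyclins, the B-type cyclin-dependent kinases (CDKB), the Aurora kinases with spindle and checkpoint genes, the genes of the phragmoplast and of cytokinesis, and regulators of this set. The deposited table held a probe set for 32 of the 39, among 21430 probe sets named by a locus. By role, 7 of 9 B-type cyclins, 7 of 7 A-type cyclins, 2 of 4 CDKB genes, 5 of 7 spindle and checkpoint genes, 7 of 7 phragmoplast and cytokinesis genes and 4 of 5 regulators were measured. CYCB1;2, CYCB2;3, CDKB1;1, CDKB1;2, CDC20.1, CDC20.2 and UVI4 were not analysed here.

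The samples were whole seedlings of lines in which the 35S promoter, active in nearly all tissues, drives a fusion of a PLETHORA (PLT) protein with the steroid-binding part of the glucocorticoid receptor (GR). PLT proteins are AP2-type transcription factors that maintain the dividing cells of the root meristem. The steroid dexamethasone (dex) releases the fusion into the nucleus. Seedlings 4 days old spent a night in liquid medium, about 50 to a flask, before 6 h of treatment. The dex groups received 10 µM dex and were 35S-PLT1-GR (3 libraries), 35S-PLT3-GR (2), 35S-PLT4-GR (3), 35S-PLT5-GR (3) and 35S-PLT7-GR (3). The mock group was 35S-PLT4-GR with the solvent DMSO (4 libraries, whereas the labels' protocols speak of 3 mock flasks). Only the PLT4 comparison was made inside a line. In the comparisons of PLT1, PLT3, PLT5 and PLT7 with mock, line and treatment cannot be told apart, and dex was given to no seedlings lacking a fusion. Replicates are biological according to the labels, and the number of arrays limits the precision.

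A plant cell enters mitosis when CDKs bound to A- and B-type cyclins become active, and it leaves mitosis when the anaphase-promoting complex (APC/C) has the cyclins destroyed. Transcription factors of the MYB3R group bind an element shared by the promoters of many genes of this phase, so that their transcripts peak together. The dividing plant cell then builds a phragmoplast, an array of microtubules that guides vesicles to a growing cell plate. In a seedling these transcripts come mostly from the root and shoot meristems, young leaves and lateral root primordia. RNA of whole seedlings does not tell more dividing cells from more RNA in each of them.

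As a check of the labels, PLT1 itself had values of 11.00 and 11.08 in PLT1 replicates 1 and 2. In the library labelled PLT1 replicate 3 it stood at 3.50, where the mock libraries and the other lines lay between 3.52 and 3.92, and PLT2 was at 10.28. That library was therefore left out of the fit of 17 arrays, while its values are printed and counts from all 18 arrays are given. The PLT3, PLT4, PLT5 and PLT7 signals of the other lines lay between 10.67 and 11.26 in their own line. The probe set of PLT4 also read 7.32 and 7.51 in PLT1 replicates 1 and 2, 5.57 in the library labelled PLT1 replicate 3, 6.11 and 6.31 in PLT3, 4.62 to 4.85 in PLT5 and 6.67 to 6.74 in PLT7, and the mock libraries, which carry the PLT4 fusion, had 11.41 to 11.58. PLT5 replicate 3 carried a weaker PLT2 signal (6.07), and PLT7 replicate 1 a PLT3 signal (6.49). All values are on the log2 scale of the deposited table, and array medians lay between 5.70 and 5.80. Differences are given with their standard error (SE) from limma. A gene is said to rise, fall or be called at an adjusted p under 0.05 over all 21430 probe sets.

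Mitotic genes rose in all 5 lines, and no measured gene of the set fell in limma's test. At an unadjusted p under 0.05, CYCA2;3 was lower in PLT4 and in the mean of the 5 lines, and no other gene was lower in any line. CYCA2;3 was called lower in the mean when mock replicate 1 was left out (-0.33, adjusted p = 0.0422). In PLT1 27 of the 32 were higher than in mock, where 27.8% of all probe sets were called higher and 23% lower. The number of genes higher than in mock was 18 in PLT3 (15.9% of all probe sets), 21 in PLT4 (20.5%), 10 in PLT5 (14.2%) and 22 in PLT7 (25.2%). In the mean of the 5 lines 29 were higher, against 25.9% of all probe sets. With all 18 arrays the counts were 25 for PLT1 (25.4% of all probe sets), 7 for PLT3 (12.9%), 16 for PLT4 (17.5%), 2 for PLT5 (11.3%), 21 for PLT7 (22.7%) and 24 for the mean (23%). The PLT5 count was 31.2% of the measured genes with 17 arrays and 6.25% with 18. It was above the background in the first fit and below it in the second. The 18th array is labelled PLT1, so the differences of PLT3, PLT4, PLT5 and PLT7 from mock are the same in both fits. Their calls changed through the shared estimate of the spread.

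**Figure D1:**
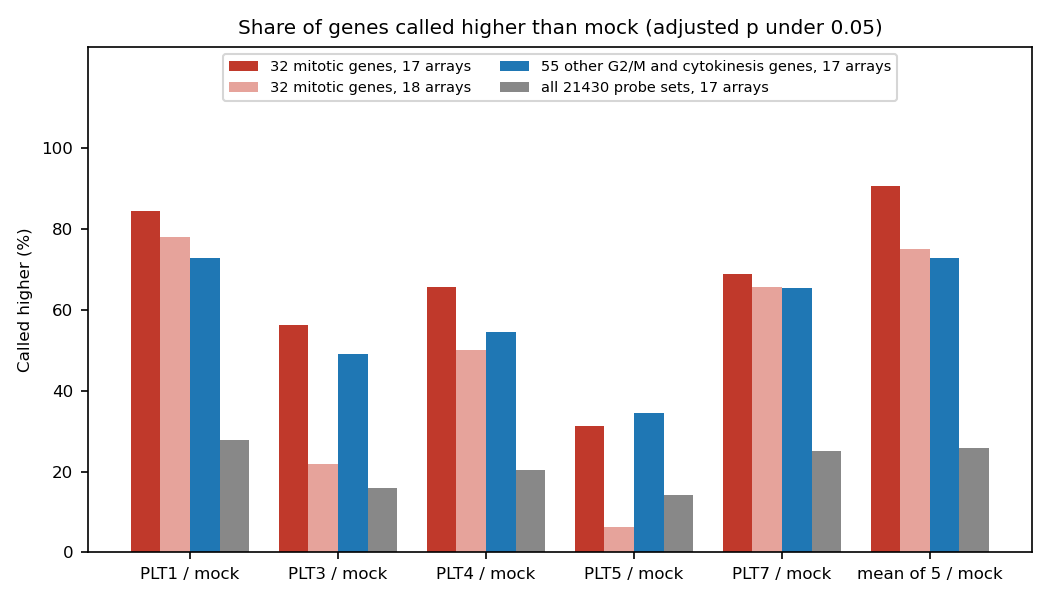
Share of genes called higher than mock (percent, adjusted p under 0.05) in each line and in the mean of the 5 lines, for the 32 measured mitotic genes with 17 and with 18 arrays, for 55 other genes of the same phase and for all 21430 probe sets. The bars of the mitotic genes with 17 arrays stand above those of all probe sets in every comparison, and those of PLT3 and PLT5 shrink most with the 18th array, to 7 genes in PLT3 and 2 in PLT5.

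The size of the rise differed between lines more than its direction. The median log2 difference from mock over the 32 genes was 0.85 in PLT1, 0.36 in PLT3, 0.41 in PLT4, 0.21 in PLT5 and 0.45 in PLT7. The medians over all probe sets lay between -0.02 and 0.03. PLT1 had the highest of the 5 line means for 25 of the 32 genes (78.1%), against 35.1% of all probe sets. PLT7 had it for 5 (15.6%, against 18.4% of all probe sets) and PLT3 for 2 (6.25%, against 15.8%), both below the background share. With the 18th array PLT1 had the highest mean for 20 of the 32, a count whose share over all probe sets is not given here. A rise of at least 2-fold was reached by 12 genes in PLT1 (6.07% of all probe sets) and 2 in PLT7 (3.65%). No gene reached it in PLT3 (1.59% of all probe sets), PLT4 (2.44%) or PLT5 (1.06%). Out of 32 genes, the counts in PLT3, PLT4, PLT5 and PLT7 are close to these shares. Every library of a line lay above every mock library for 29 genes in PLT1 (31% of all probe sets), 23 in PLT3 (22.1%), 22 in PLT4 (20.8%), 12 in PLT5 (15.6%) and 21 in PLT7 (25.7%).

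**Figure D2:**
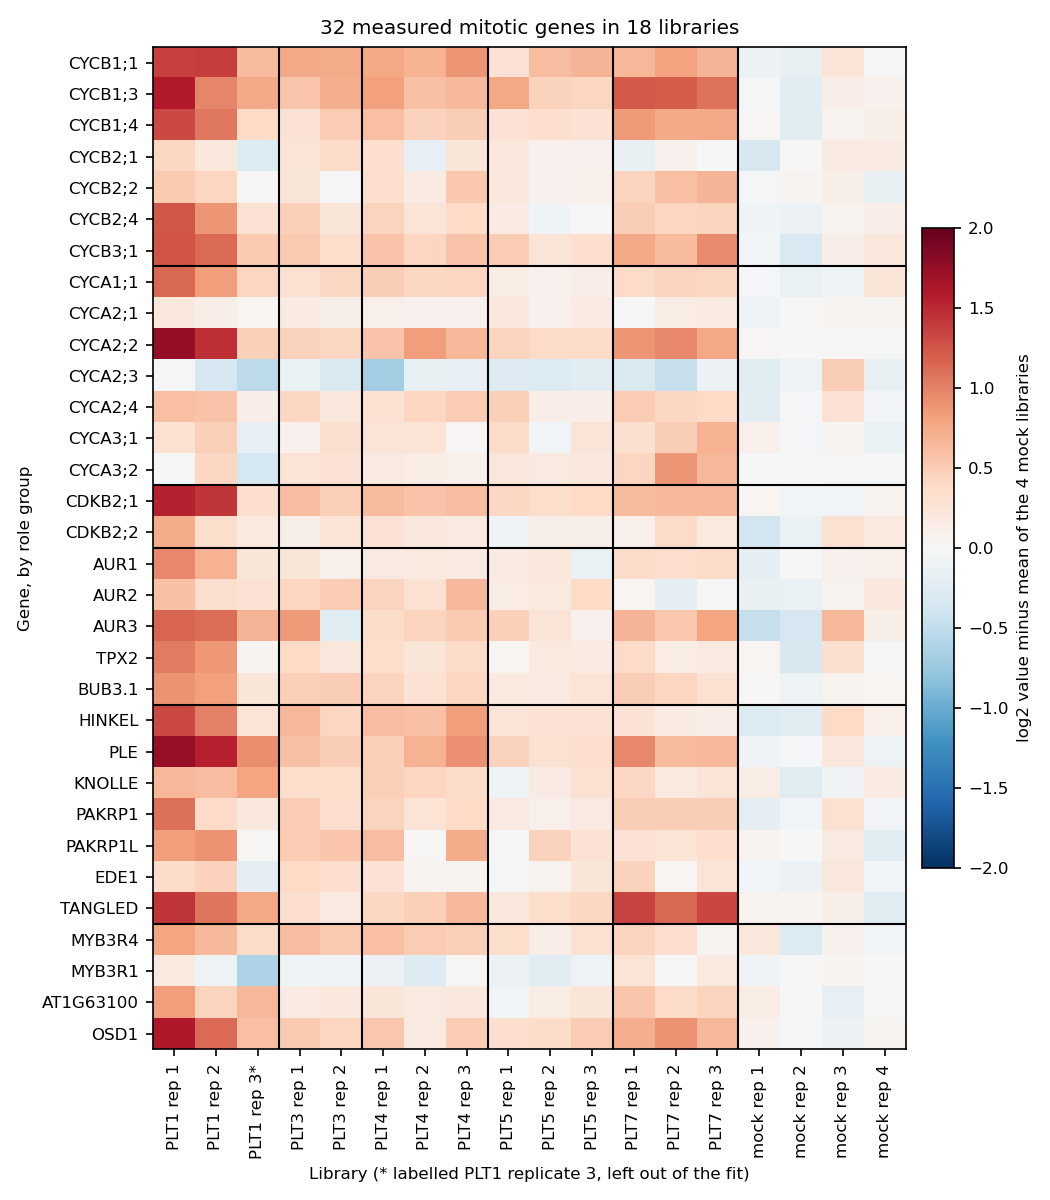
log2 value minus the mean of the 4 mock libraries for the 32 measured genes (rows, by role) in the 18 libraries (columns, dex lines first and mock last; the asterisk marks the library labelled PLT1 replicate 3). PLT1 replicates 1 and 2 carry the strongest red in most rows, the library labelled PLT1 replicate 3 is below both of them for 30 of the 32 genes, and CYCA2;3, CYCB2;1 and MYB3R1 show no common rise.

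The B-type cyclins bind CDKs at the entry into mitosis, and CYCB1;1, CYCB1;3, CYCB1;4 and CYCB3;1 rose in every line. Of the 7 measured, 6 rose in PLT1 (27.8% of all probe sets), 5 in PLT3 (15.9%), 6 in PLT4 (20.5%), 4 in PLT5 (14.2%) and 6 in PLT7 (25.2%). CYCB1;1, widely used to mark cells between G2 and mitosis, was 2.59-fold higher in PLT1 and 1.44-fold in PLT5. CYCB1;3 had the largest mean rise of all 32 genes (0.87 ± 0.10, adjusted p = 4.69e-07).

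CYCB1;1 (AT4G37490) stood at 6.71 and 6.72 in PLT1 replicates 1 and 2 (5.97 in the library labelled PLT1 replicate 3), 6.10 and 6.09 in PLT3, 6.12, 6.03 and 6.22 in PLT4, 5.62, 5.95 and 6.01 in PLT5 and 6.01, 6.14 and 6.02 in PLT7, against 5.23, 5.19, 5.60 and 5.34 in mock. Every dex library exceeded every mock library, and PLT1 replicates 1 and 2 exceeded all others. CYCB1;1 rose by 1.37 ± 0.12, adjusted p = 1.89e-08 in PLT1, by 0.75 ± 0.12 in PLT3, by 0.78 ± 0.10 in PLT4, by 0.52 ± 0.10 in PLT5 and by 0.72 ± 0.10 in PLT7. It was called in all 5 lines in both fits and whichever library was left out.

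CYCB1;3 (AT3G11520) stood at 7.55 and 6.94 in PLT1 replicates 1 and 2 (6.73 in the library labelled PLT1 replicate 3), 6.51 and 6.69 in PLT3, 6.78, 6.55 and 6.62 in PLT4, 6.74, 6.43 and 6.40 in PLT5 and 7.20, 7.17 and 7.05 in PLT7, against 5.94, 5.76, 6.10 and 6.05 in mock. The 3 PLT7 libraries lay in the range of the 2 PLT1 libraries and above all libraries of PLT3, PLT4 and PLT5. The rise was 1.28 ± 0.14 in PLT1 and 1.18 ± 0.13 in PLT7, and PLT1 and PLT7 were not called different (0.10 ± 0.15, adjusted p = 0.721). PLT7 exceeded PLT4 in the fit of 17 arrays (PLT4 minus PLT7 -0.49 ± 0.14, adjusted p = 0.0155), a call lost with 18.

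CYCB3;1 (AT1G16330) stood at 6.20 and 6.06 in PLT1 replicates 1 and 2 (5.45 in the library labelled PLT1 replicate 3), 5.46 and 5.28 in PLT3, 5.50, 5.36 and 5.50 in PLT4, 5.45, 5.19 and 5.26 in PLT5 and 5.70, 5.57 and 5.87 in PLT7, against 4.87, 4.63, 5.07 and 5.16 in mock. PLT1 was highest, PLT7 next, and no dex library overlapped mock. The rise was 1.20 ± 0.13 in PLT1, 0.43 ± 0.13 in PLT3, 0.52 ± 0.11 in PLT4, 0.37 ± 0.11 in PLT5 and 0.78 ± 0.11 in PLT7. Its calls in PLT3 and PLT5 were lost with 18 arrays, and without PLT3 replicate 1 (0.34, adjusted p = 0.165), PLT5 replicate 1 (0.29, adjusted p = 0.113) or mock replicate 2 (0.27 in PLT5, adjusted p = 0.0629).

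The other B-type cyclins differed in the number of lines in which they were called. CYCB1;4 rose in all 5 lines, by 1.19 in PLT1 and 0.79 in PLT7 and by 0.31 to 0.52 elsewhere. Its PLT3 call was lost without PLT3 replicate 2 (0.28, adjusted p = 0.132), its PLT5 call without PLT5 replicate 2 (0.29, adjusted p = 0.0530), and both with 18 arrays. CYCB2;4 rose in 4 lines and was at 0.04 ± 0.09 in PLT5. Its PLT3 and PLT4 calls were lost with 18 arrays, the PLT3 call also without PLT3 replicate 1 (0.25, adjusted p = 0.230). CYCB2;2 rose in PLT1, PLT4 and PLT7, and without PLT4 replicate 3 its PLT4 call was lost (0.25, adjusted p = 0.0680). CYCB2;1 was called in no line, with differences between -0.02 in PLT7 and 0.32 in PLT3. CYCB1;4, CYCB2;1, CYCB2;2 and CYCB2;4 fall outside the rule for named genes, as do CYCA3;2, AUR2 and all genes below that are given without values by library, and were described after their values were seen.

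**Figure D3:**
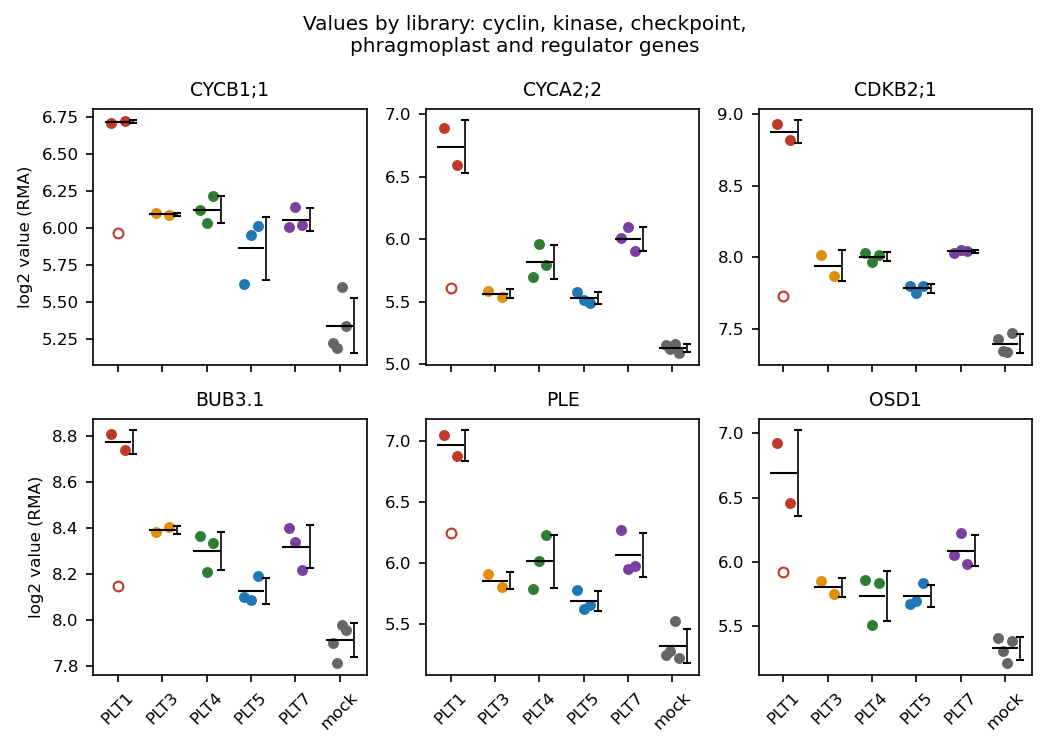
log2 values by library for CYCB1;1, CYCA2;2, CDKB2;1, BUB3.1, PLE and OSD1 in the 5 dex lines (left) and mock (right). Points are libraries, open circles the library labelled PLT1 replicate 3, horizontal bars group means without it and vertical bars their SD. In each panel the 2 filled PLT1 points lie highest and the mock points lowest.

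The A-type cyclins act from S phase to mitosis, and the family split. CYCA2;2 and CYCA1;1 followed the B-type cyclins, CYCA3;2 was called in PLT7 and in no other line, and CYCA2;1 and CYCA2;3 were called in no line. Of the 7, 4 rose in PLT1 (27.8% of all probe sets), 2 in PLT3 (15.9%), 3 in PLT4 (20.5%), 1 in PLT5 (14.2%) and 5 in PLT7 (25.2%). The single gene in PLT5, 14.3% of the 7, is at the background share.

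CYCA2;2 (AT5G11300) stood at 6.89 and 6.59 in PLT1 replicates 1 and 2 (5.61 in the library labelled PLT1 replicate 3), 5.59 and 5.54 in PLT3, 5.70, 5.96 and 5.79 in PLT4, 5.58, 5.51 and 5.49 in PLT5 and 6.01, 6.10 and 5.91 in PLT7, against 5.15, 5.12, 5.16 and 5.09 in mock. PLT1 replicates 1 and 2 were at least 0.49 above the libraries of all other groups, PLT7 came next, and mock was lowest without overlap. It was 3.05-fold higher in PLT1 (1.61 ± 0.09, adjusted p = 1.25e-10) and 1.83-fold in PLT7 (0.87 ± 0.08, adjusted p = 8.4e-08). PLT4 rose by 0.69 ± 0.08, PLT3 by 0.43 ± 0.09 and PLT5 by 0.40 ± 0.08, of which the PLT3 and PLT5 calls were lost with 18 arrays.

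CYCA1;1 (AT1G44110) stood at 8.67 and 8.37 in PLT1 replicates 1 and 2 (7.95 in the library labelled PLT1 replicate 3), 7.84 and 7.95 in PLT3, 8.02, 7.94 and 7.95 in PLT4, 7.67, 7.62 and 7.66 in PLT5 and 7.91, 7.97 and 7.95 in PLT7, against 7.50, 7.40, 7.44 and 7.78 in mock. PLT1 was highest, PLT3, PLT4 and PLT7 shared a range, and PLT5 overlapped mock through mock replicate 4. Its rise was 0.99 ± 0.10 in PLT1, 0.36 ± 0.10 in PLT3, 0.44 ± 0.09 in PLT4 and 0.41 ± 0.09 in PLT7, and PLT5 was not called (0.12 ± 0.09, adjusted p = 0.357). The PLT3 call was lost without PLT3 replicate 2 (0.31, adjusted p = 0.120) and with 18 arrays.

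CYCA2;4 (AT1G80370) stood at 5.89 and 5.87 in PLT1 replicates 1 and 2 (5.44 in the library labelled PLT1 replicate 3), 5.71 and 5.51 in PLT3, 5.61, 5.72 and 5.81 in PLT4, 5.78, 5.43 and 5.43 in PLT5 and 5.80, 5.71 and 5.69 in PLT7, against 5.09, 5.28, 5.58 and 5.24 in mock. The dex libraries lay close together, and mock replicate 3 reached into the range of PLT3 and PLT5. CYCA2;4 rose in PLT1 (0.58 ± 0.12, adjusted p = 0.000627), PLT4 (0.42 ± 0.11) and PLT7 (0.44 ± 0.11).

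CYCA3;2 (AT1G47210), a cyclin of the A3 group that is expressed around S phase, had another order. It stood at 7.43 and 7.86 in PLT1 replicates 1 and 2 (7.10 in the library labelled PLT1 replicate 3), 7.72 and 7.74 in PLT3, 7.62, 7.60 and 7.55 in PLT4, 7.66, 7.62 and 7.65 in PLT5 and 7.88, 8.33 and 8.11 in PLT7, against 7.45, 7.44, 7.47 and 7.42 in mock. The 3 PLT7 libraries were higher than all others, the mock libraries spanned 0.042, and PLT1 replicates 1 and 2 were 0.42 apart, the lower of them inside the mock range. CYCA3;2 rose in PLT7 (0.66 ± 0.10, adjusted p = 2e-05) and was not called in PLT1 (0.20 ± 0.11), PLT3 (0.28 ± 0.11), PLT4 (0.14 ± 0.10) or PLT5 (0.20 ± 0.10). PLT1 was lower than PLT7 (-0.46 ± 0.12, adjusted p = 0.0112), a call made in both fits.

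CYCA3;1 rose in PLT1 (0.39 ± 0.13) and PLT7 (0.51 ± 0.11), and its PLT1 call was lost without PLT1 replicate 2 (0.30, adjusted p = 0.162) and with 18 arrays. CYCA2;3, known to hold back the switch to endoreduplication, was below mock in the mean of every line, from -0.34 in PLT4 to -0.18 in PLT1, and was not called. Over the 5 lines together its difference was -0.25 ± 0.12, adjusted p = 0.0863, and this value rested on single mock libraries, with -0.33 (adjusted p = 0.0422, a call) without mock replicate 1 and -0.09 (adjusted p = 0.501) without mock replicate 3. Mock replicate 3 was highest at 5.53, with the other mock libraries at 4.80 to 4.94. CYCA2;1 lay between 3.35 and 3.66 in all 18 libraries, in the low range where this kind of summary compresses differences. Its call in the mean (0.13 ± 0.05) was lost in 11 of the 17 fits that left out a library, for example without mock replicate 1 (0.10, adjusted p = 0.172), and with 18 arrays.

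The CDKB kinases are specific to plants and act from G2 to mitosis. CDKB2;1 rose in all 5 lines, and CDKB2;2 was called in PLT1 and in no other line. CDKB2;1 had the smallest p of the 32 genes in the F test among the 5 lines (adjusted p = 6.43e-08).

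CDKB2;1 (AT1G76540) stood at 8.93 and 8.82 in PLT1 replicates 1 and 2 (7.73 in the library labelled PLT1 replicate 3), 8.02 and 7.87 in PLT3, 8.03, 7.97 and 8.02 in PLT4, 7.80, 7.75 and 7.80 in PLT5 and 8.03, 8.05 and 8.05 in PLT7, against 7.43, 7.34, 7.34 and 7.47 in mock. PLT1 replicates 1 and 2 were at least 0.77 above the libraries of all other groups, while PLT3, PLT4 and PLT7 lay between 7.87 and 8.05, PLT5 a little lower, and mock lowest. It was 2.79-fold higher in PLT1 (1.48 ± 0.07, adjusted p = 1.77e-11). The rise was 0.55 ± 0.07 in PLT3, 0.61 ± 0.07 in PLT4, 0.39 ± 0.07 in PLT5 and 0.65 ± 0.07 in PLT7. With 18 arrays the calls in PLT3 and PLT5 and in the F test were lost. The library labelled PLT1 replicate 3 differed from PLT1 replicate 2 by -1.09.

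CDKB2;2 (AT1G20930) stood at 7.27 and 6.88 in PLT1 replicates 1 and 2 (6.72 in the library labelled PLT1 replicate 3), 6.65 and 6.81 in PLT3, 6.81, 6.74 and 6.70 in PLT4, 6.46, 6.65 and 6.65 in PLT5 and 6.63, 6.91 and 6.73 in PLT7, against 6.16, 6.40, 6.83 and 6.72 in mock. The mock libraries spanned 0.67 and overlapped every line other than PLT1. The PLT1 rise (0.55 ± 0.15, adjusted p = 0.0055) was lost without PLT1 replicate 1 (0.35, adjusted p = 0.143). The call in the mean of the 5 lines (0.25 ± 0.10, adjusted p = 0.0469) was lost in 11 of the 17 fits that left out a library, for example without mock replicate 1 (0.13, adjusted p = 0.292), and with 18 arrays.

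Among the 5 spindle and checkpoint genes all rose in PLT1 (27.8% of all probe sets), 2 in PLT3 (15.9%), 3 in PLT4 (20.5%), 1 in PLT5 (14.2%) and 3 in PLT7 (25.2%), so that the PLT5 count is close to the background. BUB3.1, a protein of the spindle checkpoint family, rose in every line, whereas the Aurora kinases split. AUR1 and AUR2 act on the spindle and the cell plate, and AUR3 acts at centromeres.

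BUB3.1 (AT3G19590) stood at 8.81 and 8.74 in PLT1 replicates 1 and 2 (8.15 in the library labelled PLT1 replicate 3), 8.38 and 8.40 in PLT3, 8.36, 8.21 and 8.33 in PLT4, 8.10, 8.09 and 8.19 in PLT5 and 8.40, 8.34 and 8.22 in PLT7, against 7.90, 7.81, 7.98 and 7.96 in mock. No dex library overlapped mock, and PLT1 replicates 1 and 2 were highest. The rise was 0.86 ± 0.08, adjusted p = 5.82e-08 in PLT1, 0.48 ± 0.08 in PLT3, 0.39 ± 0.07 in PLT4, 0.21 ± 0.07 in PLT5 and 0.41 ± 0.07 in PLT7. The PLT5 call was lost with 18 arrays and without PLT5 replicate 1 (0.23, adjusted p = 0.0585), PLT5 replicate 3 (0.18, adjusted p = 0.120) or mock replicate 2 (0.18, adjusted p = 0.0804).

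TPX2 (AT1G03780), which nucleates spindle microtubules and activates Aurora kinase, stood at 6.22 and 6.05 in PLT1 replicates 1 and 2 (5.23 in the library labelled PLT1 replicate 3), 5.59 and 5.41 in PLT3, 5.54, 5.42 and 5.57 in PLT4, 5.22, 5.37 and 5.35 in PLT5 and 5.56, 5.33 and 5.37 in PLT7, against 5.22, 4.86, 5.50 and 5.15 in mock. PLT1 replicates 1 and 2 were highest, the library labelled PLT1 replicate 3 lay inside the mock range, and mock overlapped PLT3, PLT4, PLT5 and PLT7. TPX2 rose in PLT1 (0.95 ± 0.13, adjusted p = 7.67e-06) and PLT4 (0.33 ± 0.12, adjusted p = 0.0323). The PLT4 call was lost with 18 arrays and without mock replicate 2 or 4 or PLT4 replicate 1 or 3, at 0.22 to 0.32 (adjusted p between 0.0587 and 0.109).

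AUR3 (AT2G45490) stood at 5.57 and 5.51 in PLT1 replicates 1 and 2 (5.09 in the library labelled PLT1 replicate 3), 5.26 and 4.17 in PLT3, 4.78, 4.84 and 4.92 in PLT4, 4.88, 4.66 and 4.49 in PLT5 and 5.08, 4.93 and 5.19 in PLT7, against 3.94, 4.07, 5.07 and 4.52 in mock. The mock libraries spanned 1.13 and the PLT3 libraries 1.09, and PLT1 was the only line clear of mock. AUR3 rose in PLT1 (1.14 ± 0.26, adjusted p = 0.00144) and PLT7 (0.67 ± 0.23, adjusted p = 0.0253). The PLT7 call was lost without mock replicate 1 or 2 or PLT7 replicate 1 or 3, at 0.51 to 0.66 (adjusted p between 0.0636 and 0.0873).

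AUR2 (AT2G25880) did not follow AUR1. It stood at 6.79 and 6.52 in PLT1 replicates 1 and 2 (6.49 in the library labelled PLT1 replicate 3), 6.64 and 6.70 in PLT3, 6.65, 6.51 and 6.85 in PLT4, 6.35, 6.39 and 6.60 in PLT5 and 6.24, 6.01 and 6.19 in PLT7, against 6.05, 6.08, 6.27 and 6.42 in mock. The PLT1, PLT3 and PLT4 libraries lay above mock, and the PLT7 libraries lay inside or below the mock range. AUR2 rose in PLT1 (0.45 ± 0.12), PLT3 (0.47 ± 0.12) and PLT4 (0.47 ± 0.11) and was at -0.05 ± 0.11 in PLT7. Its PLT1 call was lost without PLT1 replicate 1 (0.32, adjusted p = 0.109) and its PLT3 call without PLT3 replicate 2 (0.44, adjusted p = 0.0675). PLT4 exceeded PLT7 (0.52 ± 0.12, adjusted p = 0.00343), and so did PLT1 and PLT3, in both fits. AUR1 rose in PLT1 (0.84 ± 0.11) and PLT7 (0.36 ± 0.09) and was not called in PLT3, PLT4 or PLT5.

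**Figure D4:**
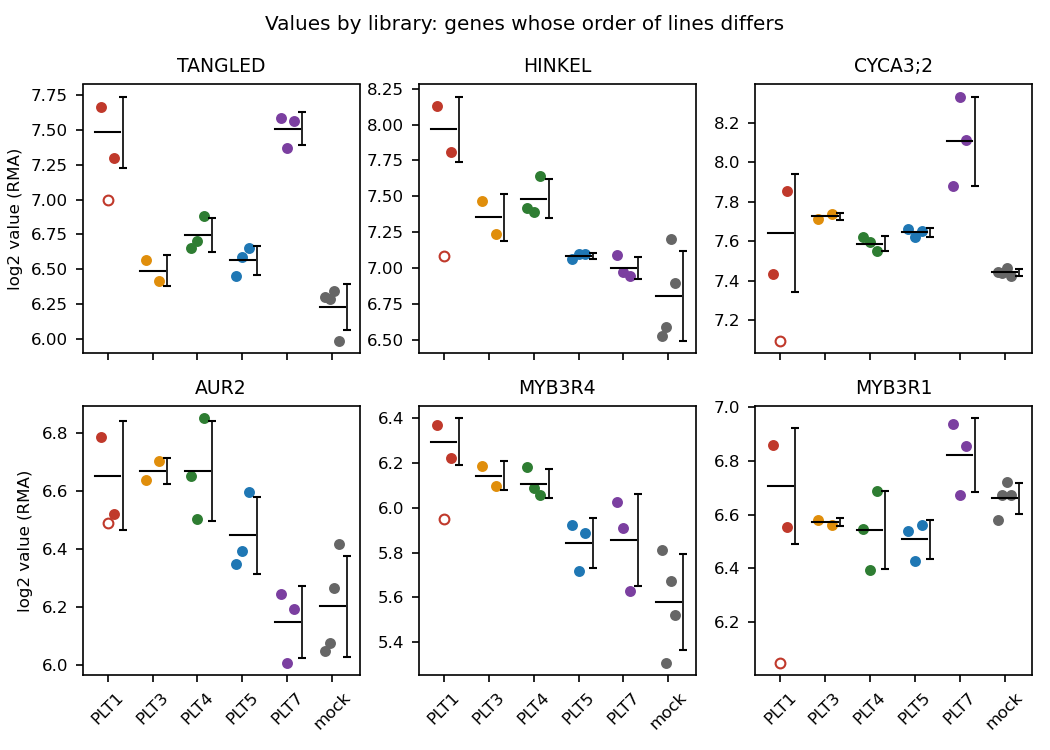
log2 values by library for TANGLED, HINKEL, CYCA3;2, AUR2, MYB3R4 and MYB3R1 in the 5 dex lines (left) and mock (right), with points, open circles and bars as in the plot of CYCB1;1, CYCA2;2 and 4 further genes. The 3 PLT7 libraries match the PLT1 libraries for TANGLED, exceed all others for CYCA3;2, and overlap mock for HINKEL and AUR2.

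Of the phragmoplast and cytokinesis genes, all 7 rose in PLT1 (27.8% of all probe sets), 6 in PLT3 (15.9%), 6 in PLT4 (20.5%), 2 in PLT5 (14.2%) and 4 in PLT7 (25.2%). PLE, a microtubule-associated protein that bundles microtubules at the midzone of the phragmoplast, had the largest rise of the 32 genes in PLT1.

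PLE (AT5G51600) stood at 7.05 and 6.88 in PLT1 replicates 1 and 2 (6.25 in the library labelled PLT1 replicate 3), 5.91 and 5.81 in PLT3, 5.79, 6.02 and 6.23 in PLT4, 5.78, 5.62 and 5.66 in PLT5 and 6.27, 5.95 and 5.98 in PLT7, against 5.25, 5.28, 5.52 and 5.22 in mock. PLT1 replicates 1 and 2 exceeded every other library, and no dex library overlapped mock. PLE was 3.14-fold higher in PLT1 (1.65 ± 0.12, adjusted p = 3.41e-09). It rose by 0.54 ± 0.12 in PLT3, 0.70 ± 0.11 in PLT4, 0.37 ± 0.11 in PLT5 and 0.75 ± 0.11 in PLT7. The PLT5 call was lost without PLT5 replicate 1 (0.32, adjusted p = 0.0764) and with 18 arrays. PLT1 exceeded each of the other 4 lines in both fits, which held for no other gene of the 32.

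TANGLED (AT3G05330), which marks the site where the new wall will join the old, stood at 7.66 and 7.30 in PLT1 replicates 1 and 2 (7.00 in the library labelled PLT1 replicate 3), 6.57 and 6.41 in PLT3, 6.65, 6.70 and 6.88 in PLT4, 6.45, 6.59 and 6.65 in PLT5 and 7.59, 7.37 and 7.57 in PLT7, against 6.30, 6.29, 6.35 and 5.98 in mock. The PLT7 and PLT1 libraries shared a range well above the other lines, and all dex libraries exceeded mock. It was 2.42-fold higher in PLT7 (1.28 ± 0.11, adjusted p = 1.75e-08) and 2.38-fold in PLT1 (1.25 ± 0.12, adjusted p = 9.39e-08). PLT4 rose by 0.51 ± 0.11 and PLT5 by 0.33 ± 0.11, and PLT3 was not called (0.26 ± 0.12, adjusted p = 0.118). PLT7 exceeded PLT3, PLT4 and PLT5 in both fits, with PLT4 minus PLT7 at -0.76 ± 0.11, adjusted p = 8.83e-05. The PLT5 call was lost with 18 arrays and without PLT5 replicate 2 or 3 or mock replicate 4, at 0.25 to 0.32 (adjusted p between 0.0721 and 0.103).

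HINKEL (AT1G18370), a kinesin that activates the MAP kinase cascade of cell plate expansion, stood at 8.13 and 7.81 in PLT1 replicates 1 and 2 (7.09 in the library labelled PLT1 replicate 3), 7.47 and 7.24 in PLT3, 7.42, 7.39 and 7.64 in PLT4, 7.06, 7.10 and 7.10 in PLT5 and 7.09, 6.98 and 6.94 in PLT7, against 6.53, 6.59, 7.21 and 6.90 in mock. PLT1, PLT3 and PLT4 exceeded every mock library, while PLT5 and PLT7 lay below mock replicate 3. HINKEL was 2.24-fold higher in PLT1 (1.16 ± 0.15, adjusted p = 3.51e-06). It rose by 0.55 ± 0.15 in PLT3 and 0.68 ± 0.13 in PLT4 and was not called in PLT5 (0.28 ± 0.13, adjusted p = 0.13) or PLT7 (0.20 ± 0.13, adjusted p = 0.246). PLT4 exceeded PLT7 with 17 arrays (0.48 ± 0.14, adjusted p = 0.0235), a call lost with 18. The PLT3 call was lost without PLT3 replicate 1 (0.43, adjusted p = 0.133) and with 18 arrays.

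KNOLLE, the syntaxin of the cell plate, rose in PLT1 (0.64 ± 0.12), PLT3, PLT4 and PLT7. It was the gene for which the library labelled PLT1 replicate 3 was higher than both other PLT1 libraries, at 7.88. Its PLT3 call was lost without PLT3 replicate 1 or 2 or mock replicate 2, at 0.28 to 0.36 (adjusted p between 0.0667 and 0.119). Its PLT7 call was lost without PLT7 replicate 1 or mock replicate 2 or 3, at 0.21 to 0.27 (adjusted p between 0.0546 and 0.125). The kinesins PAKRP1 and PAKRP1L, which sit at the phragmoplast midline, rose in PLT1 (0.75 ± 0.15 and 0.87 ± 0.16), PLT3 and PLT4, and PAKRP1 also in PLT7. Without PLT1 replicate 1 the PAKRP1 difference in PLT1 was 0.38 (adjusted p = 0.0351). In PLT3 and PLT4 the calls of both were lost with 18 arrays. Of the 17 fits that left out a library, 13 lost the PAKRP1 call in PLT3 and 5 that in PLT4, and 2 each lost the PAKRP1L calls, such as without PLT4 replicate 1 (0.34 for PAKRP1, adjusted p = 0.107, and 0.38 for PAKRP1L, adjusted p = 0.0844). EDE1, a microtubule-associated protein, rose in PLT1 (0.42 ± 0.12) and PLT3 (0.37 ± 0.12). Both calls were lost with 18 arrays, and without PLT1 replicate 2 (0.37, adjusted p = 0.0657) or PLT3 replicate 1 (0.34, adjusted p = 0.152), PLT3 replicate 2 (0.40, adjusted p = 0.0838) or mock replicate 2 (0.33 in PLT3, adjusted p = 0.0586).

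The regulators did not move alike. OSD1, an inhibitor of the APC/C, rose in all 5 lines, MYB3R4 rose in 4, and MYB3R1 was called in none. Of the 4 measured, 3 rose in PLT1 (27.8% of all probe sets), 2 in PLT3 (15.9%), 2 in PLT4 (20.5%), 1 in PLT5 (14.2%) and 3 in PLT7 (25.2%).

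OSD1 (AT3G57860) stood at 6.93 and 6.46 in PLT1 replicates 1 and 2 (5.92 in the library labelled PLT1 replicate 3), 5.85 and 5.75 in PLT3, 5.86, 5.51 and 5.83 in PLT4, 5.67, 5.70 and 5.83 in PLT5 and 6.05, 6.22 and 5.99 in PLT7, against 5.41, 5.31, 5.21 and 5.39 in mock. Every dex library exceeded every mock library, and PLT1 replicates 1 and 2 were highest. It was 2.57-fold higher in PLT1 (1.36 ± 0.12, adjusted p = 4.53e-08) and 1.69-fold in PLT7 (0.76 ± 0.11, adjusted p = 1.38e-05). The rise was 0.47 ± 0.12 in PLT3, 0.41 ± 0.11 in PLT4 and 0.41 ± 0.11 in PLT5, and these calls were lost with 18 arrays, the PLT3 call also without PLT3 replicate 1 (0.42, adjusted p = 0.0782).

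MYB3R4 (AT5G11510), an activator of mitotic genes, stood at 6.37 and 6.22 in PLT1 replicates 1 and 2 (5.95 in the library labelled PLT1 replicate 3), 6.19 and 6.10 in PLT3, 6.18, 6.09 and 6.06 in PLT4, 5.92, 5.72 and 5.89 in PLT5 and 6.03, 5.91 and 5.63 in PLT7, against 5.81, 5.31, 5.67 and 5.52 in mock. PLT1, PLT3 and PLT4 exceeded mock, and PLT5 and PLT7 overlapped it. MYB3R4 rose in PLT1 (0.72 ± 0.13, adjusted p = 0.000103), PLT3 (0.56 ± 0.13) and PLT4 (0.53 ± 0.11). The PLT7 call (0.28 ± 0.11, adjusted p = 0.0482) was lost in 14 of the 17 fits that left out a library, for example without PLT7 replicate 1 (0.19, adjusted p = 0.239), and with 18 arrays. PLT5 was not called (0.26 ± 0.11, adjusted p = 0.0863).

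MYB3R1 (AT4G32730), a relative that can also repress such genes, stood at 6.86 and 6.55 in PLT1 replicates 1 and 2 (6.05 in the library labelled PLT1 replicate 3), 6.58 and 6.56 in PLT3, 6.55, 6.39 and 6.69 in PLT4, 6.54, 6.43 and 6.56 in PLT5 and 6.94, 6.67 and 6.86 in PLT7, against 6.58, 6.67, 6.72 and 6.67 in mock. PLT1, PLT3, PLT4 and PLT7 overlapped mock, the PLT5 libraries lay below every mock library, and the library labelled PLT1 replicate 3 was lowest of all. The differences were 0.05 ± 0.10 in PLT1, -0.09 ± 0.10 in PLT3, -0.12 ± 0.09 in PLT4, -0.15 ± 0.09 in PLT5 and 0.16 ± 0.09 in PLT7, none of them called. PLT5 was lower than PLT7 with 17 arrays (-0.31 ± 0.10, adjusted p = 0.0234), a call lost with 18.

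The locus AT1G63100, which the gene table names only by its number, stood at 6.24 and 5.85 in PLT1 replicates 1 and 2 (6.06 in the library labelled PLT1 replicate 3), 5.56 and 5.62 in PLT3, 5.64, 5.58 and 5.62 in PLT4, 5.35, 5.56 and 5.65 in PLT5 and 5.96, 5.78 and 5.85 in PLT7, against 5.55, 5.42, 5.24 and 5.41 in mock. PLT1 and PLT7 exceeded all mock libraries, and so did PLT3 and PLT4 by a small margin. It rose in PLT1 (0.64 ± 0.11, adjusted p = 9.84e-05) and PLT7 (0.46 ± 0.10, adjusted p = 0.000759) and was not called in PLT3, PLT4 or PLT5, where the differences were 0.19, 0.21 and 0.11.

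**Figure D5:**
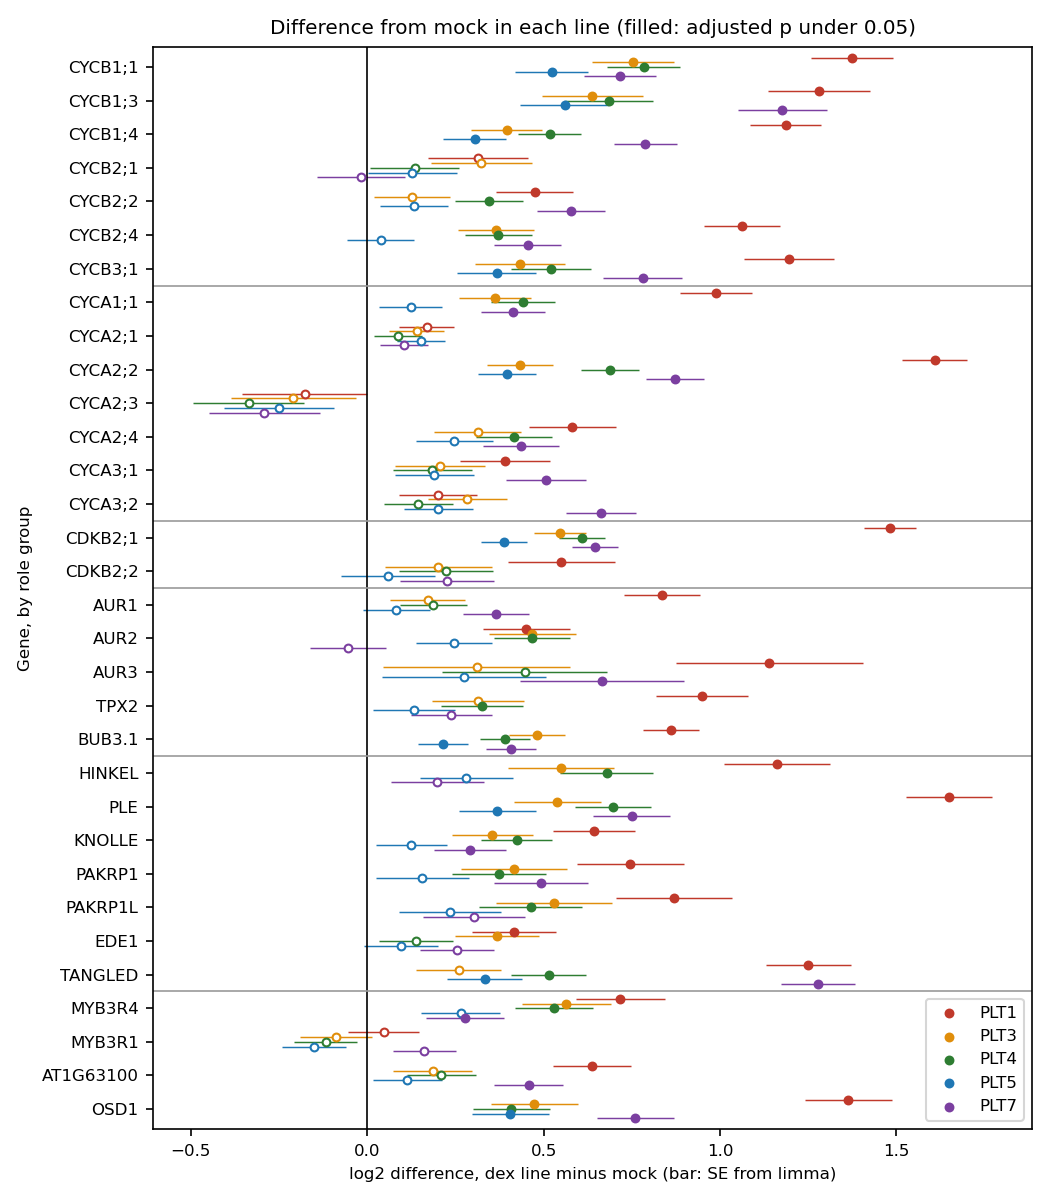
log2 difference from mock (horizontal axis, bars are the SE from limma) of the 32 measured genes, by role, in the 5 dex lines with 17 arrays. Filled points are called. PLT1 lies to the right of the other lines for most genes, and no filled point lies left of 0. PLT7 lies close to PLT1 for CYCB1;3 and passes it for CYCB2;2, CYCA3;1, CYCA3;2, TANGLED and MYB3R1.

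The lines were then set against each other directly, in tests that do not use the mock libraries in the contrast. In the F test among the 5 lines 21 of the 32 genes differed, against 36.7% of all probe sets, and 14 with 18 arrays (27.1%). PLT1 was higher than PLT3 for 16 genes (12.6% of all probe sets), than PLT4 for 16 (12.4%), than PLT5 for 23 (19%) and than PLT7 for 16 (8.39%). It was lower for 1 gene, CYCA3;2 against PLT7 (7.83% of all probe sets, and 4.37% with 18 arrays, where CYCA3;2 was again the gene called). For CDKB2;1, PLT1 minus PLT5 was 1.09 ± 0.08, adjusted p = 5.77e-09, and for CYCA2;2 it was 1.21 ± 0.10, adjusted p = 2.93e-08. With 18 arrays these counts were 5 against PLT3 (6.99%), 5 against PLT4 (7.06%), 16 against PLT5 (12.8%) and 3 against PLT7 (3.93%). Both PLT1 libraries of the 17-array fit exceeded every other dex library for 18 genes, as they did for 12.4% of all probe sets. No gene of the 32 was lower in PLT1 than in PLT3 (11.3% of all probe sets, 7.77% with 18 arrays), PLT4 (12.1%, 8.37%) or PLT5 (14.8%, 12.2%) by limma in either fit, nor at an unadjusted p under 0.05 with 17 arrays.

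Between PLT3, PLT4 and PLT5 limma called none of the 32 genes, in either fit. At an unadjusted p under 0.05, 1 gene differed between PLT3 and PLT4 (CYCA2;2, lower in PLT3). At that threshold 5 were higher in PLT3 than in PLT5, and 11 were higher in PLT4 than in PLT5. The share of all probe sets at the unadjusted threshold is not given here, so these counts have no background beside them. The called share of all probe sets was also low there, at 1.75% higher and 1.83% lower for PLT3 against PLT4, 1.12% and 0.952% for PLT3 against PLT5, and 3.58% and 3.61% for PLT4 against PLT5. PLT7 was called different from each of these lines for some genes, and from PLT5 for the most. PLT5 was lower than PLT7 for 14 genes (12.2% of all probe sets) and higher for none (11.6%). PLT3 was lower than PLT7 for 6 (7.95%) and higher for AUR2 (8.11%). PLT4 was lower than PLT7 for CYCB1;3, CYCA3;2, TANGLED and OSD1 (8.67%) and higher for AUR2 and HINKEL (9.51%). Out of 32 genes, the PLT4 counts are close to the shares of all probe sets, and the higher count of PLT3 is below its share. Of these PLT4 calls, CYCA3;2, TANGLED and AUR2 were also made with 18 arrays.

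The library labelled PLT1 replicate 3 lay below both other PLT1 libraries for 30 of the 32 genes (47.3% of all probe sets), above them for KNOLLE and between them for AT1G63100. It exceeded every mock library for 18 genes (32.1% of all probe sets), and its median difference from the mock mean was 0.28. No called difference changed its sign between the fits with and without it.

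Of 60 further G2 and mitosis genes listed by function, 55 were measured. Higher and lower genes numbered 40 and 4 in PLT1 (27.8% and 23% of all probe sets), 27 and 2 in PLT3 (15.9% and 15.7%), 30 and 6 in PLT4 (20.5% and 19%), 19 and 1 in PLT5 (14.2% and 15.1%), and 36 and 5 in PLT7 (25.2% and 22.4%). In the mean of the 5 lines 40 were higher and 5 lower (25.9% and 24.2%), and 26 differed in the F test (36.7%). With 18 arrays 30 were higher in PLT1 (25.4% of all probe sets), 15 in PLT3 (12.9%), 22 in PLT4 (17.5%), 11 in PLT5 (11.3%), 31 in PLT7 (22.7%) and 31 in the mean (23%), and 12 differed in the F test (27.1%), a share of 21.8% that is below the background. The genes named next were chosen after their values were seen. MKK6, the MAP kinase kinase of the cytokinesis cascade that HINKEL activates, rose by 2.97 ± 0.14 in PLT1, 2.02 ± 0.14 in PLT3, 1.50 ± 0.12 in PLT4, 1.00 ± 0.12 in PLT5 and 2.02 ± 0.12 in PLT7. The kinases ANP1, ANP2 and ANP3 above it rose by 0.32, 0.46 and 0.58 in the mean of the 5 lines, and MPK4 below it by 0.31. CDC27A, a subunit of the APC/C, rose by 1.16 ± 0.08, and MAP65-2, a microtubule bundling protein, by 1.26 ± 0.10. MAP65-1 of the same family fell by 0.23, and the dynamin-related DRP1A fell by 0.43. The CDK-binding subunits CKS1 and CKS2 went apart, with CKS1 at -0.31 ± 0.07 and CKS2 at 0.53 ± 0.06. CDKA;1, the CDK that acts through the whole cycle, rose by 0.16 ± 0.06 in the mean and was called in no single line.

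Markers of the tissues that a seedling holds moved between the groups as well. Of 19 listed markers 15 were measured, and RBCS1A, RBCS3B, LHCB1.1 and WOX5 were not analysed here. Of the 15, 2 were higher and 9 lower in PLT1 (27.8% and 23% of all probe sets), 3 and 7 in PLT3 (15.9% and 15.7%), 2 and 6 in PLT4 (20.5% and 19%), 2 and 7 in PLT5 (14.2% and 15.1%), and 2 and 7 in PLT7 (25.2% and 22.4%). The summed level of the root stem cell niche and ground tissue markers SCR and SHR lay between 8.92 and 9.36 in the dex lines (8.43 in the library labelled PLT1 replicate 3), against 8.13 to 8.34 in mock. The 2 endodermis markers lay between 5.15 and 6.95, against 7.80 to 8.26 in mock. CASP1 fell in all 5 lines, with differences of -1.47 in PLT5 to -3.43 in PLT1, whereas MYB36 fell by 0.75 in PLT1 and 0.50 in PLT7 and was not called in PLT3 (0.00), PLT4 (-0.18) or PLT5 (-0.12). The 2 xylem markers lay between 4.96 and 6.23, against 6.49 to 7.00 in mock. The 2 root hair markers lay between 4.87 and 5.84, against 5.69 to 6.01 in mock, and the 3 stomatal markers between 6.16 and 7.04, against 6.50 to 6.87 in mock. Among these MUTE fell in all 5 lines, though it lay between 3.19 and 3.98 in all libraries, at the low end of the scale. FAMA fell in PLT1, PLT4, PLT5 and PLT7, and SPCH rose in PLT3 (0.65, adjusted p = 0.00186) and was called in no other line. The leaf marker RCA lay between 13.01 and 13.47, against 13.54 to 13.61 in mock. The 3 shoot meristem markers overlapped mock in every line, at 5.36 to 5.67 against 5.46 to 5.69 in mock, though STM fell in PLT3 (-0.34, adjusted p = 0.0445). Their defining genes CLV3 and WUS stayed low in all libraries, at 3.45 to 3.81 and 3.31 to 3.52. The part of any tissue in the differences of the mitotic genes was not tested.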

How the data were processed

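Biotin-labelled RNA of 18 seedling samples was hybridised to single-colour arrays, and samples were grouped by their titles. The authors deposited 1 table of log2 values with a column per array. The submitters' processing notes list RMA and limma 3.24.15 without saying what each was used for. RMA normalises arrays to a common distribution, which removes a shift shared by most genes. Differences at low signal are compressed in such values. The table has 21494 rows, of which 64 control rows were left out. Probe sets were matched to members by locus, and no member shared its values with another probe set. No level of a gene is set against that of another.

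From these values a fit with 1 coefficient per group and no covariate was computed with limma 3.58.1 in R 4.3.3, over 17 arrays that share an estimate of the spread. Tests were moderated and two-sided, with p-values adjusted by Benjamini-Hochberg within each contrast, over 21430 probe sets, and a threshold of 0.05. The comparisons of the lines with mock share the 4 mock libraries, so their counts are not independent of each other. A dex library was left out of this fit where its induced PLT signal lay at the level of other groups, which held for the library labelled PLT1 replicate 3. The fit was tested on simulated data for PLT4 against mock alone, with known changes in the PLT4 group and no differences among the other groups. The other comparisons were not tested in this way. The members, the gene lists and the choice of libraries were made with earlier results of these data known.

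Named with values by library are, for each role, the up to 3 called genes of largest change in the mean of the 5 lines, the regulators, and the 4 genes whose F test gave the smallest p. In a role with fewer than 3 called genes, 2 are named. CYCA3;2 and AUR2 were added after their values were seen. Replicate numbers were not treated as pairs in the main fit. Over 36 pairs of same-numbered libraries the correlation of deviations from group means had a median of -0.0203. Of these, 4 pairs were over 0.1, and the highest value was 0.236. Over 83 pairs with different numbers the median was 0.0198, 12 were over 0.1, and the highest was 0.181. Whether same-numbered libraries were handled together was not tested. Alternatives were all 18 arrays, each library left out, the 2 libraries with a weaker PLT signal of another line left out, only the compared groups, the replicate number as a block, weights for array quality, eBayes with a robust trend in variance, arrays centred on their medians or quantile-normalised again, removal of dim probe sets, a common adjustment over the 5 lines, and a 2-fold minimum.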

Additional observations from a re-analysis of the deposited data

Results flagged for a closer look

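The 5 lines differed in 21 of the 32 genes by the F test of limma, which tests the difference between the lines itself. The same test called 36.7% of all probe sets. The adjusted p was 6.43e-08 for CDKB2;1, 2.08e-07 for CYCA2;2, 1.82e-06 for TANGLED, 5.91e-06 for PLE, 2.41e-05 for CYCB1;4, 2.76e-05 for CYCB2;4 and 6.04e-05 for OSD1. It was 0.000102 for CYCA1;1, 0.000146 for BUB3.1, 0.000342 for AUR1, 0.000408 for CYCB1;1, 0.000582 for CYCB3;1 and 0.000665 for HINKEL. It was 0.00126 for CYCB1;3, 0.00144 for TPX2, 0.00436 for CYCA3;2, 0.00632 for AUR2, 0.00694 for AT1G63100, 0.00772 for CYCB2;2, 0.0254 for KNOLLE and 0.0337 for MYB3R4. PLT1 had the highest mean for most of these genes, with PLT7 above it for CYCA3;2, CYCB2;2 and TANGLED and PLT3 and PLT4 above it for AUR2. With all 18 arrays the F test called 14 of the 32 genes and 27.1% of all probe sets. CDKB2;1 was then no longer called.

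In the mock group TANGLED had a low library, replicate 4 at 5.98 against 6.29 to 6.35 in the others. The gap was 0.843 of the group's range, above Dixon's critical value for 4 samples, and chance flags about 1 in 20 groups.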

How the results depend on the processing

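Without mock replicate 1, CYCA2;3 was called lower in the mean of the 5 lines (-0.33, adjusted p = 0.0422). No difference of a single gene changed its sign past the threshold under any alternative. With all 18 arrays the genes called fell to 7 in PLT3 and 2 in PLT5. The median differences from mock stayed at 0.36 in PLT3 and 0.21 in PLT5, because the 18th array is in neither group. That array entered these tests through the shared estimate of the spread. The cause of the other moves below was not tested. Without the 2 libraries with a weaker PLT signal of another line PLT5 had 6. Without PLT3 replicate 1, PLT3 had 10. A minimum of 2-fold left 12 in PLT1, 2 in PLT7 and 0 in PLT3, PLT4, PLT5 and the mean of the 5 lines, and leaving out dim probe sets, which leaves 19 members in the test, called 17 of the 19 in PLT1 and 18 of the 19 in the mean. Leaving out each library in turn gave 25 to 28 genes in PLT1, 10 to 20 in PLT3, 17 to 22 in PLT4, 7 to 12 in PLT5, 19 to 25 in PLT7, 25 to 29 in the mean and 19 to 24 in the F test. Where this left PLT1 or PLT3 with 1 library, that library was assumed to vary like the other groups. Called in every such fit were 23 of 27 genes in PLT1, 7 of 18 in PLT3, 17 of 21 in PLT4, 5 of 10 in PLT5, 19 of 22 in PLT7 and 25 of 29 in the mean. With the replicate block the counts were 27 in PLT1, 18 in PLT3, 22 in PLT4 (21 higher, and CYCA2;3 lower), 10 in PLT5, 21 in PLT7, 29 in the mean and 24 in the F test. Shares of all probe sets called are given above for the fits of 17 and 18 arrays and, in each of the 5 lines, for the 2-fold minimum. For the other alternatives they are not given, so those counts cannot be read against a background. For the mean of the 5 lines a fit on only the compared groups is the fit reported, so it gave no further value. The arrays give no detection calls, so signal over background is unknown, and CYCA2;1 lay at the low end of the scale.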
